A study of Homo sapiens with 6 samples.

Results

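The genes described here are the metallothioneins and the core of the cellular zinc response: MT1E, MT1F, MT1G, MT1H, MT1M, MT1X and MT2A, the zinc exporter gene SLC30A1 and the zinc-sensing transcription factor gene MTF1. They were chosen by name, as every probe set of the deposited table for which the platform annotation lists 1 gene symbol and that symbol is one of these 9 genes. This gave 11 probe sets, of which 3 belong to MT2A, out of 19460 single-symbol probe sets for 18417 genes and 33297 probe sets in all. No probe set with several symbols lists a member, and all 11 matched a RefSeq gene by Entrez identifier. The 3 YW3-56 arrays are from cultures of MDA-MB-231, a line from a human breast tumour without oestrogen, progesterone or HER2 receptors, exposed to 10 µM YW3-56 for 8 h. The 3 DMSO arrays are from the same line given the vehicle, for which the labels do not state a separate time. YW3-56 is known as an inhibitor of peptidylarginine deiminases, and the question is which transcripts differ after exposure to it. Both groups were grown in medium with serum and treated near confluence, and the labels call the replicates biological without saying how the cultures were kept apart.

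Metallothioneins are small cysteine-rich proteins that bind zinc and copper, and also toxic metals such as cadmium, and release zinc when their cysteines are oxidised. Their genes are switched on by MTF1, a zinc finger factor that senses free zinc and binds short promoter motifs called metal response elements. SLC30A1 encodes ZnT1, the exporter of the plasma membrane and also an MTF1 target, while importers of the SLC39 (ZIP) family bring zinc into the cytosol. In breast cancer cells metallothionein levels vary between lines, and MT2A is the form usually found at high level.

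The promoter windows of members that were changed and members that were not are shown first, since the family shares one regulatory motif. Each is 300 bases of RefSeq sequence (GRCh38.p14) in the direction of the gene, from 250 bases before the gene start to 50 after it. Capitals mark each match to the core of the metal response element, searched as TGCACNC and TGCGCNC on both strands, and no matches overlapped each other. The windows are chr16:56682220-56682519 for MT1X (+ strand), chr1:211579112-211579411 for SLC30A1 (- strand), chr16:56608334-56608633 for MT2A (+ strand) and chr16:56669564-56669863 for MT1H (+ strand).
MT1X: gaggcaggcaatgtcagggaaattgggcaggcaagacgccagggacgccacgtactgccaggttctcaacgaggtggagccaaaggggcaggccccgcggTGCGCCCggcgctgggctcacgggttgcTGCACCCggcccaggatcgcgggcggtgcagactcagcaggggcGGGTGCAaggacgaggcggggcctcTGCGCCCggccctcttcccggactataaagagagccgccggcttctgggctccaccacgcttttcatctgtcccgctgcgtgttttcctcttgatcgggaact
SLC30A1: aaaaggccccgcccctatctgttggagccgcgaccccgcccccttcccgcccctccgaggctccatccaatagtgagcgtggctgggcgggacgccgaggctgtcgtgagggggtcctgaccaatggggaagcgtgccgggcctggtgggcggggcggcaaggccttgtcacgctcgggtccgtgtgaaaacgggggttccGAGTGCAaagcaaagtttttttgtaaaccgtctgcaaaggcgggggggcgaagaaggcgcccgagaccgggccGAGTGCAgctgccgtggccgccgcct
MT2A: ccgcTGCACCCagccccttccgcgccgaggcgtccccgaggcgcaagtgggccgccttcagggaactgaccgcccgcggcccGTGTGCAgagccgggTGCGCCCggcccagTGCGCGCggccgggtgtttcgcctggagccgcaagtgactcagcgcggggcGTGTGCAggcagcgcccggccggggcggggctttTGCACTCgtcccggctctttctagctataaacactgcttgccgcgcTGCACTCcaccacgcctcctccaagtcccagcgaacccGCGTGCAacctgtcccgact
MT1H: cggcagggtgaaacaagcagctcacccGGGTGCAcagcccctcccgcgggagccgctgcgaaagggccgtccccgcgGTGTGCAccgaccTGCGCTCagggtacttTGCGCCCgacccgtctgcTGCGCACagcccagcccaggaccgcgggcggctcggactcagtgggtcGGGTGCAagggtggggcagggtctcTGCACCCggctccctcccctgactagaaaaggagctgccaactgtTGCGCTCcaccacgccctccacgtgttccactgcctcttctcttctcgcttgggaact

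The MT1X window holds 4 matches, that of SLC30A1 holds 2, and those of MT2A and MT1H hold 8 each. MTF1 has 0 matches in its own window. Of 35116 promoter windows in the same RefSeq table, 29.6% hold at least 1 match, 8.60% hold at least 2, 0.601% hold at least 4 and 0.0199% (7 windows) hold at least 8. The core of the antioxidant response element, searched as TGACNNNGC on both strands, occurs 1 time each in the windows of MT1X, SLC30A1 and MT2A, in none of MT1H and MTF1, and in 13.3% of all windows, and no such match overlaps a metal response element match here. These are matches of letters and say nothing of binding. MT1E, MT1F, MT1G and MT1M were not analysed here for promoter sequence.

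**Figure D1:**
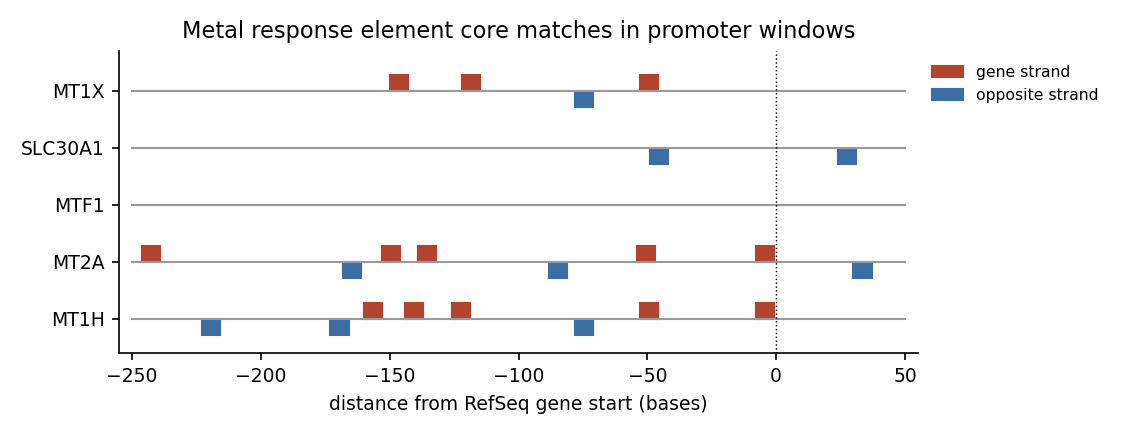
Matches to the metal response element core in 5 promoter windows; the x axis is the distance in bases from the RefSeq gene start, red boxes lie on the gene strand and blue boxes on the opposite one. MT2A and MT1H carry 8 boxes each, MT1X carries 4, SLC30A1 carries 2 and MTF1 none.

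In YW3-56-treated cells the exporter SLC30A1, the metallothioneins MT1X and MT1E and the regulator MTF1 were higher, by 1.30-fold to 1.54-fold. MT2A, MT1G, MT1F, MT1H and MT1M did not pass the test, and no member was lower. So 4 of 11 member probe sets, 4 of the 9 genes, were called higher (limma, two-sided, adjusted p under 0.05 over all 19460 probe sets), where 9.64% of all probe sets were called higher and 11.5% lower. All 11 log2 fold changes were above 0, with a median of 0.12, while 37.9% of all probe sets had a change above 0 and the median over all was -0.05. In 8 of the 11 probe sets each YW3-56 value lay above each DMSO value, which held for 15.4% of all probe sets, while 21.5% had each YW3-56 value below and 36.9% were apart in either direction. The arrays measured whole cultures, so more cells with a transcript and more RNA per cell cannot be told apart. Metallothionein genes are close copies, so a probe set may also read its neighbours, and the 11 probe sets are not independent of each other.

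MTF1, the zinc sensor, had log2 expression values of 11.16, 11.13 and 11.14 in the YW3-56 arrays and 10.80, 10.69 and 10.56 in the DMSO arrays (probe set 7915091). The treated values were nearly equal to each other and all lay above the DMSO values. MTF1 rose 1.38-fold, a log2 fold change of 0.46 ± 0.08 (SE, with 3 arrays in each group; limma adjusted p = 0.00573). This call held in all 16 alternative fits.

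SLC30A1, which exports zinc across the plasma membrane, had values of 9.36, 9.70 and 9.72 in YW3-56 and 9.08, 9.02 and 8.82 in DMSO (probe set 7924092). The groups did not overlap, and YW3-56 replicate 1 was the lowest of the treated arrays. The gene rose 1.54-fold, by 0.62 ± 0.12 on the log2 scale (limma adjusted p = 0.00754). A test of each probe set without shared variance ended that call (adjusted p = 0.0636).

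MT1X, a metallothionein that human cells induce with zinc and cadmium, had values of 12.68, 12.68 and 12.80 in YW3-56 and 12.10, 12.01 and 12.23 in DMSO (probe set 7995838). It rose 1.52-fold, by 0.60 ± 0.08 (limma adjusted p = 0.00193), with no overlap of groups and a call in all 16 alternative fits. For MT1E, another isoform of the same cluster, the values were 12.76, 12.88 and 12.72 in YW3-56 and 12.31, 12.45 and 12.46 in DMSO (probe set 7995797). It rose 1.30-fold, by 0.38 ± 0.08 (limma adjusted p = 0.012). Without YW3-56 replicate 2, the highest treated array, MT1E was 0.33 higher on the log2 scale and no longer called (adjusted p = 0.0555).

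**Figure D2:**
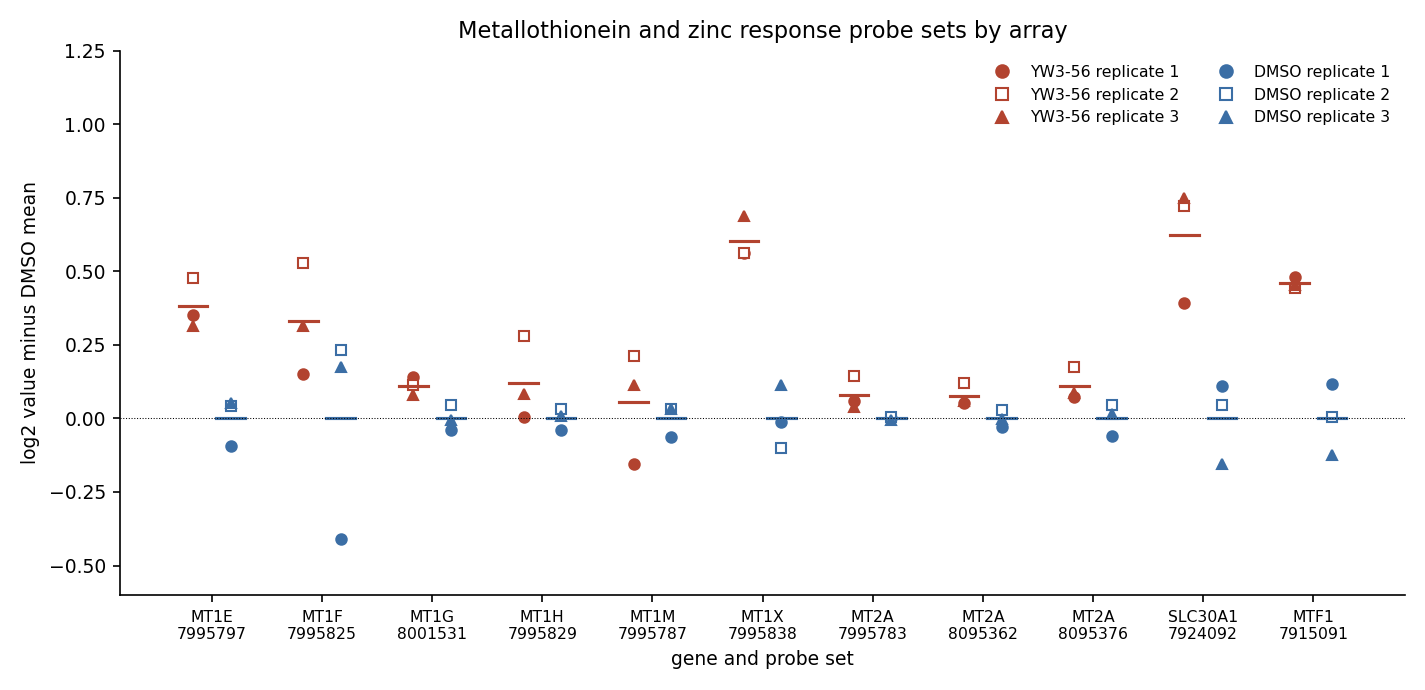
Values of the 11 member probe sets in each array, on the y axis as log2 value minus that probe set's DMSO mean, with YW3-56 (red) left of DMSO (blue), symbols for replicate numbers and bars for group means. The 3 treated symbols stand clear of the 3 DMSO symbols for MT1X, MT1E, SLC30A1 and MTF1. They also lie above them, by narrower gaps, for MT1G and the 3 MT2A probe sets. DMSO replicate 1 lies far below the other DMSO arrays for MT1F.

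For MT2A, the isoform that is most abundant in most human tissues, the platform annotation lists 3 probe sets. Which transcripts each of these probe sets reads was not tested. The brightest, 8095362, read 14.37, 14.43 and 14.37 in YW3-56 and 14.29, 14.34 and 14.31 in DMSO, a log2 fold change of 0.08 with a 95% interval from -0.08 to 0.23. Probe set 7995783 read 14.31, 14.39 and 14.28 in YW3-56 and 14.25, 14.25 and 14.24 in DMSO. The last one, 8095376, read 14.20, 14.30 and 14.21 in YW3-56 and 14.07, 14.17 and 14.14 in DMSO. All 3 probe sets had the treated arrays above the DMSO arrays, by 0.08 to 0.11 on the log2 scale, and none was called (adjusted p from 0.357 to 0.521). The upper ends of their 95% intervals were 0.23, 0.24 and 0.28. Without YW3-56 replicate 2 the change of 7995783 was 0.05.

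MT1G, an isoform often silenced in tumours, also moved little, with 13.38, 13.35 and 13.32 in YW3-56 and 13.20, 13.28 and 13.23 in DMSO. Its groups did not overlap, but the change of 0.11 (95% interval -0.05 to 0.27) was not called (adjusted p = 0.331). MT1F had 11.68, 12.05 and 11.84 in YW3-56 and 11.12, 11.76 and 11.70 in DMSO. The groups overlapped, and DMSO replicate 1 lay far below the other DMSO arrays. Its change of 0.33 ± 0.18 was not called (adjusted p = 0.249), and was 0.13 without DMSO replicate 1. A fit that blocked on replicate number called MT1F (adjusted p = 0.0481).

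MT1H and MT1M, further isoforms of the cluster, were the dimmest members. MT1H had 7.71, 7.98 and 7.78 in YW3-56 and 7.66, 7.73 and 7.71 in DMSO, with overlapping groups and a change of 0.12 (95% interval -0.08 to 0.33, adjusted p = 0.419), which was 0.04 without YW3-56 replicate 2. MT1M had 6.75, 7.11 and 7.02 in YW3-56 and 6.84, 6.93 and 6.93 in DMSO, so that the lowest of all 6 values was a treated one. Its change of 0.06 (95% interval -0.18 to 0.30) was not called (adjusted p = 0.779), and without YW3-56 replicate 2 it was -0.02.

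Called metallothioneins and most of those not called lay in different ranges of brightness, with MT1F the exception. MT1X, MT1E and MT1F had DMSO means of 12.11, 12.41 and 11.53, MT1G and the MT2A probe sets lay above these, and MT1H and MT1M lay far below. The 3 MT2A probe sets are among only 10 of the 19460 with a mean above 14 over the 6 arrays, where the highest value of the table is 14.69. Of those 10 probe sets 1 was called, and of the 195 at or above the 99th percentile of brightness, which include MT1G, 14.4% were called, with a median absolute log2 fold change of 0.08. From the 95th to the 99th percentile, where MT1X, MT1E and MT1F lie, 28.2% of 779 were called and the median was 0.16. Below the 50th percentile, where MT1H and MT1M lie, 8.06% of 9729 were called and the median was 0.10. The part of brightness in the small changes of MT2A, MT1G, MT1H and MT1M was not tested.

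**Figure D3:**
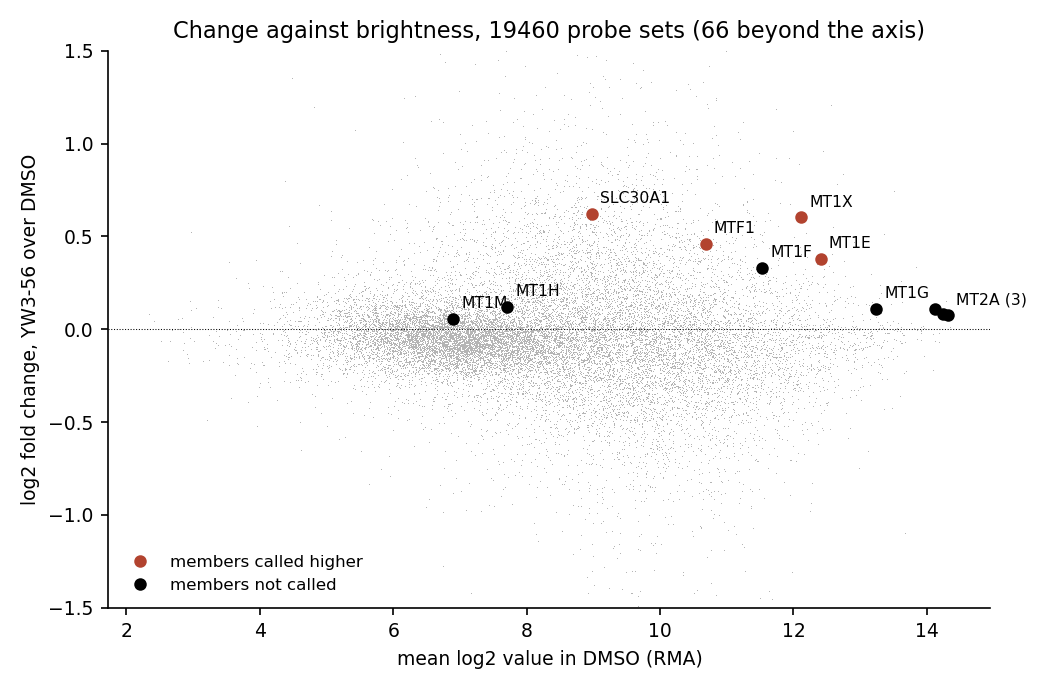
Log2 fold change, YW3-56 over DMSO, against the mean log2 value in DMSO for 19460 probe sets (grey), with called members in red and other members in black; 66 probe sets lie beyond the y axis. MT1X and MT1E sit left of MT1G, and the 3 MT2A probe sets sit at the right edge of the cloud.

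Whether members differed from MT2A in their response was tested on the difference from probe set 8095362 within each array. For MT1X this difference was -1.69, -1.76 and -1.57 in YW3-56 and -2.19, -2.33 and -2.09 in DMSO, so MT1X gained 0.53 ± 0.10 more than MT2A on the log2 scale (limma adjusted p = 0.00331). SLC30A1 gained 0.55 ± 0.12 more (adjusted p = 0.00736), MTF1 0.38 ± 0.09 more (adjusted p = 0.0151) and MT1E 0.30 ± 0.08 more (adjusted p = 0.025). In these 4 the groups did not overlap, and the two-sided exact permutation p was 0.1, the smallest that 3 arrays against 3 allow. The same held for MT2A probe set 8095376 against 8095362, 2 probe sets annotated to the same gene, with a difference of 0.03 (adjusted p = 0.758). In the plain comparison of groups 21.1% of all probe sets were called and 36.9% were apart. These shares were not counted for differences from 8095362, so how unusual such a difference is cannot be read here. Probe set 8095362 is 1 of the 10 with a mean above 14, whose median absolute log2 fold change was 0.07, and the part of its brightness in these differences was not tested. The call for MTF1 against MT2A was lost without DMSO replicate 2 (adjusted p = 0.0551), YW3-56 replicate 1 (0.0516) or YW3-56 replicate 3 (0.0647). That for MT1E was lost without DMSO replicate 2 (0.07) and without YW3-56 replicates 1 (0.0657), 2 (0.0939) or 3 (0.069). For MT1F the gain over MT2A was 0.26 (95% interval -0.09 to 0.60), and 0.06 without DMSO replicate 1. For MT1H it was 0.04 (-0.15 to 0.24), for MT1G 0.03 (-0.15 to 0.21) and for MT1M -0.02 (-0.24 to 0.20).

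The arrays did not carry the members equally. YW3-56 replicate 2 was the highest treated array in 7 of the 11 probe sets, and DMSO replicate 2 the highest vehicle array in 7. DMSO replicate 1 was the lowest vehicle array in 7, and YW3-56 replicate 1 the lowest treated array in 6. MTF1 and SLC30A1 departed from this order among the DMSO arrays, with DMSO replicate 1 the highest for both. MT1X departed from it too, with DMSO replicate 2 the lowest and DMSO replicate 3 the highest. DMSO replicate 3 was also the highest vehicle array for MT1E and the lowest for MT2A probe set 7995783.

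The metallothionein genes lie side by side on chromosome 16, where RefSeq lists 16 metallothionein genes and pseudogenes from MT4 to MT1X with no other measured protein-coding gene between them. MT1E is the fifth in that order and MT1X the last, and MT1M, MT1F, MT1G and MT1H, which were not called, lie between these changed members. The 3 measured protein-coding genes nearest to each side of the cluster were looked at after the members' values were known. Among these 6 neighbours HERPUD1, a part of the degradation complex of the endoplasmic reticulum, had 12.57, 12.44 and 12.62 in YW3-56 and 10.43, 10.89 and 11.18 in DMSO and rose by 1.71 ± 0.17. NUP93, a nuclear pore protein, had a change of -0.32 (adjusted p = 0.0167), a call lost without DMSO replicate 2 (0.0705), YW3-56 replicate 2 (0.0683) or YW3-56 replicate 3 (0.0825) and after centring (0.0689). OGFOD1, NUDT21, BBS2 and SLC12A3 were not called.

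Metallothioneins outside the member list had 8 measured probe sets, 1 for each gene. Of these 1 was called higher and 0 lower, where 9.64% of all probe sets were called higher and 11.5% lower. All 8 changes were above 0, with a median of 0.16, where 37.9% of all probe sets were above 0 and their median was -0.05. As close copies, the 8 probe sets are not independent of each other or of the members. The called one was MT1P3, a metallothionein pseudogene on chromosome 20, with 11.39, 11.40 and 11.44 in YW3-56 and 10.94, 11.05 and 11.07 in DMSO (0.39 ± 0.07, adjusted p = 0.00689). Its sequence is a copy of a family member, and which transcripts it reads was not tested. MT1DP, a transcribed pseudogene, had a change of 0.24 ± 0.10 (adjusted p = 0.138), and MT1JP, another one, had 0.31 ± 0.14 (adjusted p = 0.172). Blocking on replicate number added a call for MT1JP (adjusted p = 0.0407), which makes 2 calls in the list. Without YW3-56 replicate 2 the changes were 0.15 for MT1DP and 0.19 for MT1JP, and without DMSO replicate 1 that of MT1JP was 0.20. MT3, MT4, MT1B, MT1HL1 and MT1IP had changes from 0.08 to 0.16. MT1A, MT1L, MT1CP and MT1P1 were not analysed here.

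Among zinc importers, SLC39A10, SLC39A3 and SLC39A8 fell, while the exporter SLC30A1 rose. Of 14 SLC39 genes (16 probe sets), 3 were lower and 0 higher, with a median change over the probe sets of -0.02. The shares over all probe sets were 11.5% lower and 9.64% higher. The probe sets of SLC39A7 gave identical values, so they repeat 1 reading. SLC39A10, an importer whose transcript MTF1 is known to hold down at high zinc in mouse and zebrafish, had 9.18, 8.90 and 9.10 in YW3-56 and 10.16, 10.04 and 10.02 in DMSO. Every treated value lay far below every DMSO value, and SLC39A10 was 2.02-fold lower (-1.02 ± 0.09, limma adjusted p = 0.00037). It was called in all 16 alternative fits.

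SLC39A3, an importer of the plasma membrane, had 9.10, 8.93 and 8.98 in YW3-56 and 9.42, 9.23 and 9.33 in DMSO, a change of -0.32 ± 0.08 (adjusted p = 0.0277). SLC39A8, which carries zinc, manganese and cadmium into cells, had 10.98, 10.94 and 10.90 in YW3-56 and 11.25, 11.20 and 11.19 in DMSO, a change of -0.28 ± 0.07 (adjusted p = 0.0233). Both sets of groups were apart, but centring each array on its median ended these 2 calls (adjusted p = 0.103 for SLC39A3 and 0.123 for SLC39A8), which left SLC39A10 as the called importer. Without YW3-56 replicate 2 or without YW3-56 replicate 3 both were lost as well, with adjusted p from 0.0834 to 0.109, and so were SLC39A3 without DMSO replicate 3 (0.0625) and SLC39A8 without DMSO replicate 2 (0.0764). SLC39A3 was also not called over all probe sets of the table (0.0581) or without shared variance (0.0671). The other 11 importers, SLC39A1, SLC39A2, SLC39A4, SLC39A5, SLC39A6, SLC39A7, SLC39A9, SLC39A11, SLC39A12, SLC39A13 and SLC39A14, had changes from -0.11 to 0.17 and were not called. The promoter table gives 2 windows for SLC39A10, with 0 and 1 metal response element matches.

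**Figure D4:**
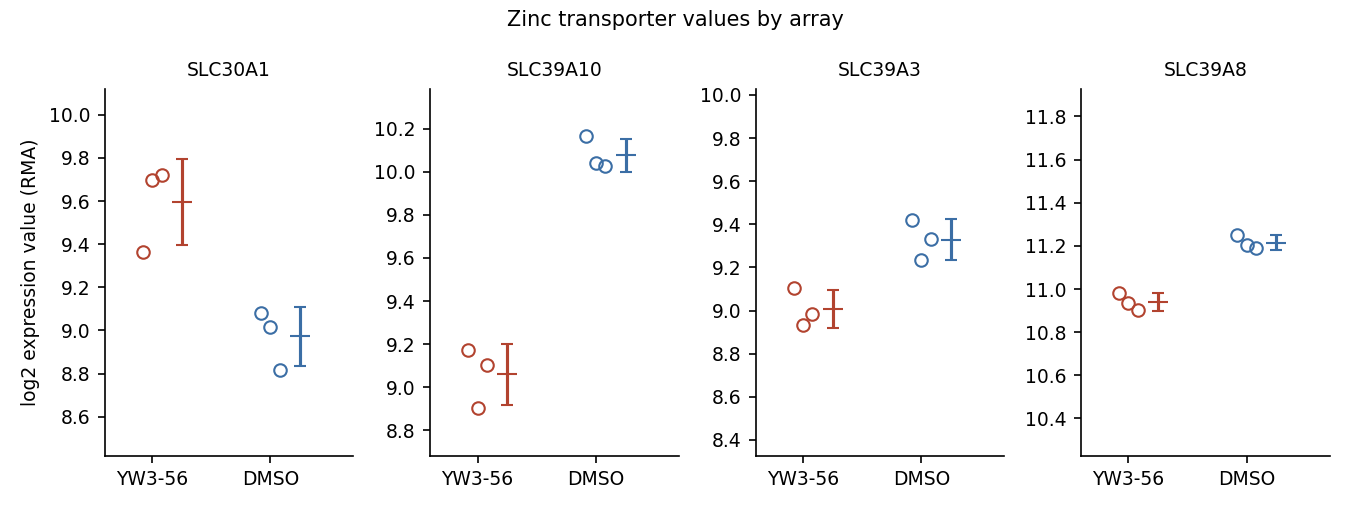
Log2 expression values (y axis) of SLC30A1 and the 3 called importers in each array (open circles), YW3-56 left of DMSO, with group means ± SD of 3 arrays beside them; all panels span the same range of log2 units. SLC30A1 is higher and SLC39A10, SLC39A3 and SLC39A8 are lower in YW3-56.

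None of the other 9 SLC30 genes, most of which load zinc into organelles or vesicles, was called in either direction in limma. An unadjusted limma p under 0.05 was found for 4 of the 9, and for 6122 of all 19460 probe sets. SLC30A7, which fills the Golgi, had 11.69, 11.71 and 11.71 in YW3-56 and 11.93, 11.91 and 11.92 in DMSO, a change of -0.22 ± 0.07 just outside the threshold (adjusted p = 0.0511). It was called lower in 5 of 16 alternative fits, with the lowest adjusted p under a trended and robust prior (limma, 0.00432). SLC30A4, a transporter of intracellular vesicles, had a change of -0.49 ± 0.17 (adjusted p = 0.0757). SLC30A4 was also called in 5 of 16, among them with replicate number as the block (adjusted p = 0.0199) and without DMSO replicate 3 (0.0492). SLC30A2, SLC30A3, SLC30A5, SLC30A6, SLC30A8, SLC30A9 and SLC30A10 had changes from -0.23 to 0.16. Other settings called up to 4 genes of this family lower, and array weights also called 3 higher.

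**Figure D5:**
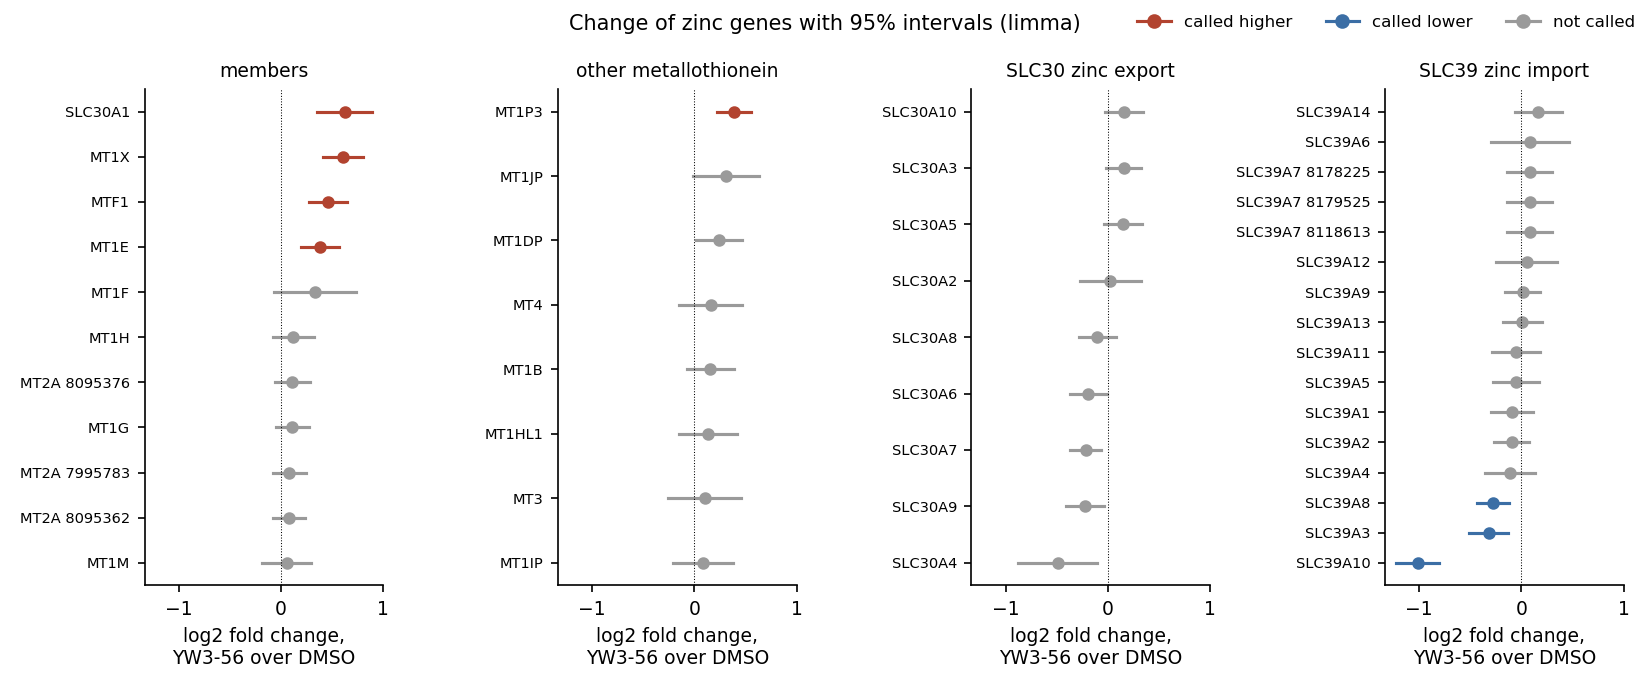
Log2 fold changes (x axis), YW3-56 over DMSO, with 95% intervals from limma for the members, the other metallothioneins and the SLC30 and SLC39 families; red is called higher, blue called lower and grey not called. SLC39A10 lies alone at the left, and all metallothionein points lie right of 0.

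Copper handling genes, listed because metallothioneins also bind copper, went both ways, with 2 of 15 probe sets higher and 4 lower (median -0.13). The shares over all probe sets were 9.64% higher and 11.5% lower. SOD1, the copper and zinc superoxide dismutase, had 11.04, 10.91 and 11.12 in YW3-56 and 10.51, 10.38 and 10.49 in DMSO (0.56 ± 0.08, adjusted p = 0.00256). SLC31A1, the copper importer CTR1, rose by 0.40 ± 0.08 (adjusted p = 0.00868). The metal reductase STEAP2 had the largest fall of the list, -1.02 ± 0.16 (adjusted p = 0.00332), followed by STEAP3 (-0.54), SLC31A2 (-0.40) and SCO1, a copper chaperone of cytochrome oxidase (-0.35). A test without shared variance ended the call of STEAP2 (adjusted p = 0.0527). SLC31A2 was not called without DMSO replicates 1 (0.0618) or 3 (0.0881) or YW3-56 replicates 2 (0.136) or 3 (0.147), over all probe sets of the table (0.0816), after centring (0.0872) or without shared variance (0.143), nor SCO1 without YW3-56 replicate 3 (0.0543). The replicate block called 5 lower, adding the metal reductase gene STEAP1, named after its values were seen (-0.38, adjusted p = 0.00886 with the block and 0.0584 without it).

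Stress genes that toxic metals are known to induce rose in 11 of 14 measured members, and 0 fell, beside 9.64% and 11.5% of all probe sets. The list was chosen with earlier results of these data known, so its count is no test against those shares. The median log2 fold change was 0.11 over the 9 probe sets of member metallothioneins and 1.00 over these 14, and that difference was not tested. HMOX1, haem oxygenase 1, had 13.36, 13.54 and 13.52 in YW3-56 and 10.45, 10.10 and 10.19 in DMSO. The 6 largest log2 fold changes were those of the chaperone gene HSPA6 (4.96), HMOX1 (3.23), the co-chaperone gene DNAJB1 (1.60), the glutathione synthesis gene GCLC (1.32), the sulfiredoxin gene SRXN1 (1.29) and EGR1 (1.05), an immediate early factor. EGR1 was not called without shared variance (adjusted p = 0.1). NQO1, HSPA8 and FOS, named after their values were seen, were the members not called, with changes of 0.19, 0.15 and 0.09. HSPA1A and HSPA1B were not analysed here. HSPA8, like MT2A, has a mean above 14.

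Glucocorticoids induce MT2A and MT1X in many human cells, so a list of glucocorticoid-induced genes was read beside them. FKBP5 was not analysed here. Of 14 probe sets for the other 13 genes, 4 were higher and 2 lower (median 0.04), where 9.64% of all were higher and 11.5% lower. TSC22D3, the leucine zipper protein GILZ, had 11.05, 11.20 and 11.41 in YW3-56 and 8.97, 8.84 and 9.27 in DMSO and rose 4.58-fold (2.19 ± 0.13, adjusted p = 8.03e-05). The kinase gene SGK1 (1.00 ± 0.13), the phosphatase gene DUSP1 (0.79 ± 0.14) and the transcription factor gene CEBPD (0.40 ± 0.09) rose too. DUSP1 (adjusted p = 0.0636) and CEBPD (0.056) were not called when variance was not shared between probe sets. PER1, a clock gene, had a change of -0.49 ± 0.07, and MAOA, monoamine oxidase A, one of -0.32 ± 0.08. Leaving out DMSO replicate 2 or YW3-56 replicate 2 or 3 ended the calls of CEBPD (adjusted p from 0.0538 to 0.0623) and of MAOA (0.0602 to 0.097). MAOA was not called after a second quantile normalization (0.0555) or centring (0.0873) either.

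Profiles most like those of the called members were found by the mean absolute difference over the 6 arrays, after subtraction of each probe set's DMSO mean. For MT1X the nearest were TRIM41 (0.0199), DGCR8 (0.0304) and CCDC9 (0.0309), and for MT1E they were MBD6 (0.0266), FAM219A (0.0267) and PPM1M (0.0275). SLC30A1 was nearest to the zinc finger genes ZNF826P (0.0426), ZFP30 (0.0482) and ZNF763 (0.0572). MTF1 was nearest to GLB1 (0.015), GPR137B (0.0153) and MID1 (0.021). Members themselves were not candidates, and these distances describe 6 arrays that share 1 pair of groups.

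Across the whole table, 4112 of 19460 probe sets (21.1%) were called, 1876 higher and 2236 lower. Leaving out 1 array gave 1178 to 2157 higher and 1241 to 2721 lower, with the fewest without YW3-56 replicate 3, while array weights gave 3675 and 5506. Without DMSO replicate 2 there were 1486 lower and without YW3-56 replicate 2 there were 1364. Arrays of the same group had Pearson correlations of 0.990 to 0.997 over probe sets, and arrays of different groups 0.980 to 0.985. The markers listed as high in this line, VIM, CD44, AXL, CAV1 and KRT18, lay at or above the 93.2 percentile of brightness. Of those listed as low, ESR1, PGR and CDH1 lay at or below the 22.4 percentile. EPCAM and GATA3, also listed as low, lay between the 34.4 and 39.2 percentiles. ERBB2, listed as low too, lay above the median, at the 65.9 percentile. The leucocyte and endothelial markers PTPRC, CD3E, PECAM1 and CDH5 lay at or below the 26.2 percentile.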

How the data were processed

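Total RNA of 6 MDA-MB-231 cultures was labelled with biotin and hybridised to 1 array each, per the labels' protocols. The authors deposited log2 expression values for 33297 probe sets, made with RMA and the affy package per the submitters' processing notes, of unstated version; the sources used here do not give the genome build. RMA includes a step that makes the arrays' distributions alike, so a shift of all transcripts may not show. The deposited values were not fully equalised, with array medians from 7.55 (DMSO replicate 1, the lowest) to 7.74 (DMSO replicate 3, the highest). Arrays carry no read depth, and their number limits the precision.

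Single-symbol probe sets (19460; 1754 had several symbols and 12083 none) were named from the platform annotation, which can be old. They were fitted with limma 3.58.1 in R 4.3.3 (lmFit, eBayes, group as the only term, 4 residual and 4.11 prior degrees of freedom, no filter), two-sided, with Benjamini-Hochberg adjustment over all of them and a threshold of 0.05. The fit was tested on simulated data. Members and lists were chosen with earlier results of these data known. Genes were named by a rule: all members, all genes of the other metallothionein, SLC30 and SLC39 lists, up to 6 of each other list by size of change (called genes first), and the 3 nearest profiles of each called member. Deviations from group means correlated at 0.54, 0.37 and 0.105 between arrays of the same replicate number, each above 0.1. The numbers were therefore used as a block, but only in an alternative fit. The main fit and the differences from MT2A take no account of them. YW3-56 replicate 2 correlated at 0.41 with DMSO replicate 3, and the labels do not say what the numbers share.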

Additional observations from a re-analysis of the deposited data

How the results depend on the processing

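The count of member probe sets called higher was 4 in most fits, 3 in a test without shared variance, 5 with replicate number as a block, and from 3 to 4 when 1 array was left out; 0 were lower throughout. MT1X and MTF1 were called in each of the 16 alternatives, SLC30A1 and MT1E in 15, and MT1F in 1. With 1 array left out, the change of MT1M ran from -0.021 to 0.16, negative without YW3-56 replicate 2.

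For all probe sets, array weights gave 3675 higher and 5506 lower, at a weight of 10.0 for DMSO replicate 2 and 0.252 for DMSO replicate 1. Leaving out 1 array gave 1178 to 2157 higher and 1241 to 2721 lower. Other metallothioneins called higher were 2 with a trended and robust prior, 3 with array weights and 2 with the replicate block. SLC30 genes called lower were 1 above the 25th percentile of brightness, 3 above the median, 2 with the trended and robust prior, 1 without shared variance, 4 with array weights, 1 with the replicate block and 0 to 1 with 1 array left out, and array weights called 3 higher. For SLC39, array weights gave 3 higher and 5 lower, centring gave 1 lower, and leaving out 1 array gave 1 to 3 lower. For copper genes, array weights called 4 higher, the test without shared variance 2 lower, and 1 array left out 2 to 4 lower. Glucocorticoid-induced genes called higher were 2 without shared variance, and 1 was lower after a second quantile normalization, after centring and above the median, with 1 to 3 when 1 array was left out. Why these counts moved was not tested, and that includes the filters, which leave fewer probe sets to test.

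Differences from MT2A with 1 array left out ran from 0.32 to 0.46 for MTF1, 0.27 to 0.33 for MT1E, 0.065 to 0.36 for MT1F, -0.013 to 0.092 for MT1H, -0.076 to 0.075 for MT1M and -0.0083 to 0.019 for MT2A probe set 7995783; signs turned in the last 3, which were not called. Over the named genes, 712 of 777 alternative values kept their direction and side of the threshold, 36 lost a call, 28 gained one and 1 changed sign. Beyond MT1F, the replicate block changed no member's call; elsewhere among the named genes it added MT1JP, SLC30A4 and STEAP1.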
